A study of Mus musculus with 4 samples.

Results

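The 10 imprinted genes Peg10, Sgce, Ppp1r9a, Mest, Grb10, Plagl1, Impact, Nnat, Gnas and Rasgrf1 were followed in sorted cells of the mouse genital ridge with and without HP1γ. They were taken by name, as some of the imprinted genes that lie outside the Peg3, Prader-Willi, Dlk1, Igf2 and Kcnq1 domains. This rule uses no measured value, but the members were chosen with earlier results of these data known. All 20 probes matched to them were read, out of 41174 on the array, and the 10 genes stand among 18327 that could be named. The tested embryos were HP1γ-/- from a modified gene trap and carried a Blimp1-mVenus transgene. Their controls were wild type for HP1γ and carried the same transgene, so every embryo had the reporter, which is driven by Blimp1 (Prdm1) and can mark any cell that expresses that gene. Genital ridges were taken at embryonic day 11.5, and their mVenus-positive cells, isolated with a flow cytometer, are labelled primordial germ cells. RNA was pooled from 5 or 6 embryos of a genotype, each giving 500 to 3500 cells, and 4 ng was amplified and labelled for a one-colour Agilent array. There were 2 independent pools per genotype, hence 4 arrays. The arrays read total transcript and do not separate the parental alleles.

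Genomic imprinting marks some genes by DNA methylation laid down in one parent's germ line, so that only the copy from the mother or from the father is transcribed in the offspring's body cells. Primordial germ cells are where these marks are erased, and endothelial, blood and stromal cells of the same embryo keep them. HP1γ, the product of Cbx3, binds histone H3 methylated at lysine 9, a modification that also lies on the silent copy of many imprinted control regions. The question here is whether the transcript level of these imprinted genes differed between the HP1γ-null and the wild-type pools.

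All values below are levels, meaning the log2 signal of a probe relative to the 75th percentile of its own array, and a difference is the null mean minus the wild-type mean on that log2 scale. Levels of different probes are not compared, because each probe has its own brightness. Spots well above background made up 53.8% and 63.3% in null replicates 1 and 2, against 53.3% and 56.7% in wild-type replicates 1 and 2. The targeted gene was far lower in both pools labelled null. By Cbx3 probe A_51_P160328 its level was -1.95 and -1.59 in null replicates 1 and 2 and 4.80 and 5.07 in wild-type replicates 1 and 2 (limma adjusted p = 0.044). Of 19 germ cell markers 16 had a probe, and 16 and 7 of these were well above background in null replicates 1 and 2, against 15 on each wild-type array. Of the 15 germ cell markers tested, 8 entered through the wild-type arrays alone. Their median level was 1.09 and -5.33 in null replicates 1 and 2, against -0.59 and -1.69 in wild-type replicates 1 and 2. The summed linear signal of these 15 ran from 6.29 to 216.8 times the array's 75th percentile in the null pools and from 20.7 to 56.2 in wild type. Except in null replicate 2, this sum rested mostly on Dppa5a. Its level was 7.45 and -0.84 in null replicates 1 and 2 and 5.37 and 3.66 in wild-type replicates 1 and 2. Endothelial and leukocyte markers were bright on every array, with medians of 3.37 to 4.24. Where leaving out a null array turned a member's direction, the value without it is given below or in the closing section. In pooled RNA, fewer cells of a type and less RNA per cell cannot be told apart. With 2 arrays per genotype, precision is limited by their number.

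The promoters shown are 3, those of Mest and Plagl1, each with a probe lower on both null arrays, and that of Nnat, the member that varied most. They come from RefSeq (build GRCm38.p6) and run from 250 bases before to 50 bases after a transcription start, read 5′ to 3′ on the plus strand, with CpG pairs in capitals, since methylation of CpG carries the imprint. The Mest window is chr6:30737800-30738099, the Plagl1 window chr10:13090582-13090881 and the Nnat window chr2:157559828-157560127.
Mest: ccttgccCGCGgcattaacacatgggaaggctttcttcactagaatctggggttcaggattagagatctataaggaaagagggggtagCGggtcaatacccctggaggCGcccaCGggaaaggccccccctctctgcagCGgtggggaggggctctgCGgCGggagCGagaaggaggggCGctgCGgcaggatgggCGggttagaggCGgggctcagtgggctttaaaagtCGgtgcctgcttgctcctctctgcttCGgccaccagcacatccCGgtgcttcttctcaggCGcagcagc
Plagl1: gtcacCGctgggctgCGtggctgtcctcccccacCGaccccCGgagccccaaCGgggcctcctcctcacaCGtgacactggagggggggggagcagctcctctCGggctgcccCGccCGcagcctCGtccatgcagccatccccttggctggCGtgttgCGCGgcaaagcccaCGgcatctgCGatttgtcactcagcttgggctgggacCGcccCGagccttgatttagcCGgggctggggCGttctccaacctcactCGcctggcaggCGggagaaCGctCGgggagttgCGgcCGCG
Nnat: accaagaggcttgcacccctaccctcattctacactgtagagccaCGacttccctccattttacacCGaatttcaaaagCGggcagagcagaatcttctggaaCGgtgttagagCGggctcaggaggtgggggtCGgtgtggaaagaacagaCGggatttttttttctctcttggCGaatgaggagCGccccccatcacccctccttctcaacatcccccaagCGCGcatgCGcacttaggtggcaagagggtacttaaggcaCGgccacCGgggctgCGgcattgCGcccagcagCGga

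The Plagl1 promoter holds 26 CpG pairs, and those of Mest and Nnat hold 17 each. The median over all 32851 promoter windows of this length was 7, with an upper quartile of 20. Promoters were given for 7 of the 10 genes, in 14 windows, and each of the 14 held more CpG than that median, from 8 in the upstream Mest window to 48 in a Ppp1r9a window. The letters TGCCGC, searched on both strands, are the hexamer that the zinc finger protein ZFP57 binds when it is methylated at imprinted control regions. They occur in the Mest window at 2 places and in those of Plagl1 and Nnat at 1 place each. Among all promoter windows 11.6% hold this hexamer, as do 5 of the 14 windows of these genes, of which the pair at Mest overlap almost wholly. The hexamer itself holds a CpG, and all 14 windows exceed the median in CpG, so these shares do not compare like windows. A match describes the letters only.

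None of the 10 genes passed the test for a difference between genotypes. Of the 20 probes, 16 were well above background on all 4 arrays and were tested, so none entered the test through 1 genotype alone. The other 4, both probes of Rasgrf1 and a pair of Gnas probes, were not well above background on any array. No tested probe passed (limma, smallest adjusted p = 0.53), where 0.00891% of all 22440 probes did. An unadjusted p under 0.05 was reached by 2 probes, 1 of Mest and 1 of Plagl1, against 7.51% of all probes. Differences ran from -0.81 to 1.43, with a median over the 16 probes of -0.10, and the median over all tested probes was -0.06. Means were lower in the null pools for 11 and higher for 5, and 58.3% of all tested probes had lower means. The groups did not overlap for 4 of the 16 probes, all lower in the null pools, while 38.2% of all probes did not overlap and 23% were lower in that way. That share is close to the background. No member differed at least 2-fold without overlap, as 4.99% of all probes did, 3.92% higher and 1.07% lower in the null pools.

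**Figure D1:**
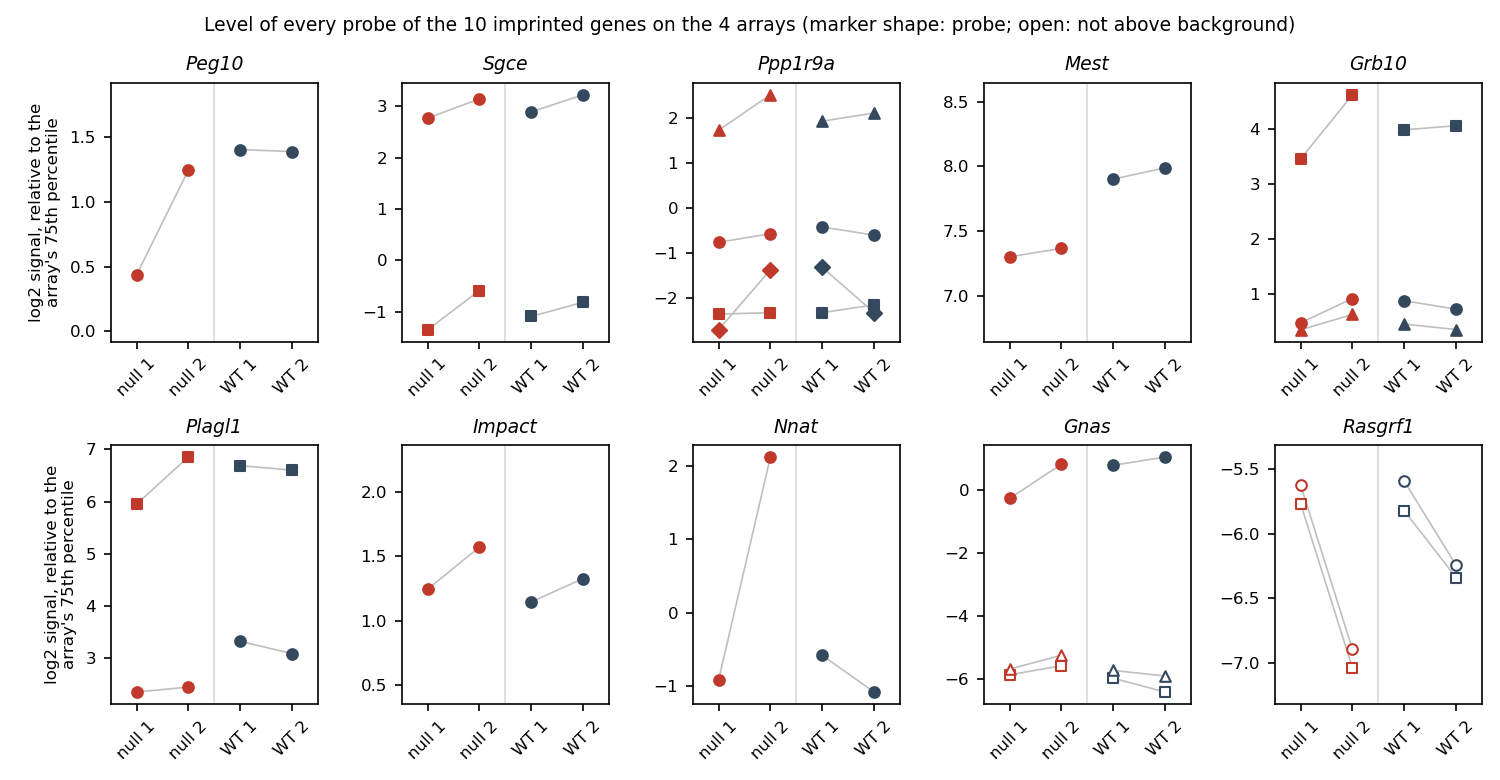
Level of each of the 20 probes (log2 signal relative to the array's 75th percentile, vertical axis with its own range in each panel) on the 2 HP1γ-null (red) and 2 wild-type (dark) arrays, with marker shapes for the probes of a gene and open markers for probes at background and grey lines joining the arrays of a genotype. Mest lies between 7.30 and 7.37 on the null arrays, below 7.90 and 7.99 in wild type, and Nnat stands out on the array of null replicate 2 at 2.12.

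The paternally expressed genes with the steadiest separation between genotypes were Mest and, by 1 of its probes, Plagl1. Mest encodes an α/β-hydrolase-fold protein of mesodermal tissues. Its probe A_51_P124535 had levels of 7.30 and 7.37 in the null pools and 7.90 and 7.99 in the wild-type pools. Both null arrays were lower than both wild-type arrays, and the gap between the genotypes exceeded the gap within either. The difference was -0.61 with SE 0.19, a 1.53-fold higher wild-type level, and it missed the threshold (limma adjusted p = 0.61, 95% confidence interval -1.12 to -0.10). Without any 1 array it lay between -0.66 and -0.57. Endothelial markers moved with it: all 14 had lower means in the null pools, 13 of them without overlap, with a median difference of -0.63. Their summed linear signal was 211.4 and 267.4 in null replicates 1 and 2 and 367.1 and 392.1 in wild-type replicates 1 and 2. Their part in the Mest difference was not tested.

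Plagl1 encodes a zinc finger transcription factor that restrains cell growth and, in mouse tissues, regulates other imprinted genes. Its probe A_51_P432034 had levels of 2.35 and 2.45 in the null pools and 3.32 and 3.09 in the wild-type pools, without overlap. This difference, -0.81 with SE 0.21, was the most negative among the 16 probes and missed the threshold (limma adjusted p = 0.53). The brighter probe A_52_P532456 had levels of 5.95 and 6.85 in the null pools and 6.69 and 6.60 in the wild-type pools. Here null replicate 1 was the lowest array and null replicate 2 the highest, so the genotypes overlapped and the 2 probes of the gene disagree. Its difference was -0.24 with SE 0.36, and without null replicate 1 it turned to 0.21.

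Grb10 and Gnas, whose loci make transcripts from the maternal copy, overlapped between the genotypes. Grb10, an adaptor of insulin and growth factor receptors that limits growth and is transcribed from the maternal copy in most tissues, had 3 probes. Its brightest, A_52_P115787, had levels of 3.46 and 4.63 in the null pools and 3.99 and 4.07 in the wild-type pools. The wild-type arrays thus lay between the 2 null arrays. The difference was 0.02 (limma adjusted p = 1.00, 95% confidence interval -1.15 to 1.18). Dropping null replicate 2 moved it to -0.57, and dropping null replicate 1 to 0.60. Probes A_51_P187151 and A_52_P40363 differed by -0.10 and 0.09, and also overlapped.

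Gnas encodes the stimulatory G protein α subunit, beside several other transcripts of the locus with imprinted promoters. Probe A_52_P112188 had levels of -0.26 and 0.82 in the null pools and 0.79 and 1.05 in the wild-type pools. Only null replicate 1 was below both wild-type arrays. The difference was -0.64 with SE 0.42 (limma adjusted p = 0.82). Leaving out null replicate 2 gave -1.18, and leaving out null replicate 1 gave -0.10. The other 2 Gnas probes gave levels of -5.86 to -5.24 in the null pools and -6.41 to -5.72 in wild type, all not well above background. Which transcripts of the locus each Gnas probe reads was not resolved.

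The domain of Peg10 on chromosome 6 holds 3 of the genes in a row. Peg10, a gene derived from a retrotransposon and needed for the placenta, and Sgce, the ε-sarcoglycan gene, are neighbours that start next to each other and are transcribed from the paternal copy. Ppp1r9a, which encodes the actin-binding neurabin, follows, and in mouse it is imprinted mainly in extraembryonic tissue. Peg10 probe A_52_P377723 had levels of 0.44 and 1.25 in the null pools and 1.41 and 1.39 in the wild-type pools. Both null arrays were lower, but null replicate 2 by only a small step. The difference was -0.56 with SE 0.33 (limma adjusted p = 0.80). Leaving out null replicate 2 gave -0.96, and leaving out null replicate 1 gave -0.15.

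Sgce did not separate the genotypes. Its probe A_51_P311137 had levels of 2.77 and 3.15 in the null pools and 2.89 and 3.23 in the wild-type pools, and replicate 2 was the higher array in both genotypes. The difference was -0.10 (limma adjusted p = 0.97, 95% confidence interval -0.78 to 0.58), and turned to 0.09 when null replicate 1 was left out. The second probe, A_52_P27864, differed by -0.02. Ppp1r9a had 4 probes with differences of -0.22 to 0.10. Its brightest, A_52_P239536, had levels of 1.72 and 2.51 in the null pools and 1.92 and 2.10 in the wild-type pools, so the null arrays lay on either side of wild type. The difference of 0.10 became -0.29 without null replicate 2. The dim probe A_52_P167843 did not overlap, at -2.37 and -2.34 in the null pools and -2.34 and -2.17 in the wild-type pools, where the nearest arrays differ only beyond the second decimal. Its difference was -0.10.

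Among the genes around Peg10, 8 were tested, members included, and 7 had lower means in the null pools, where 58.3% of all probes did. Of the 8, 4 were lower without overlap, where 23% of all probes were, and with so few genes no excess over that background is claimed. Casd1, which encodes a sialic acid O-acetyltransferase and is the neighbour of Sgce on the other side, had levels of 1.85 and 1.69 in the null pools and 2.50 and 2.70 in the wild-type pools. It differed by -0.83 with SE 0.21 (limma adjusted p = 0.52). Asb4, an imprinted ubiquitin ligase component, differed by -0.39 and -0.57 by its 2 probes, the second without overlap (limma adjusted p = 0.85 and 0.63), and the first was -0.06 without null replicate 1. Around Mest, the neighbouring coatomer gene Copg2 went the other way. Its probe A_51_P172692 had levels of 1.84 and 1.86 in the null pools and 1.23 and 1.24 in the wild-type pools, a difference of 0.61 with SE 0.19 (limma adjusted p = 0.61). Copg2 probe A_52_P48777 differed by 0.71 without overlap, while A_52_P362015, at -0.50 and -1.78 in the null pools, overlapped wild type. Mest and Copg2 were thus separated in opposite directions by 1 Mest and 2 of 3 Copg2 probes, and none of these passed the threshold.

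**Figure D2:**
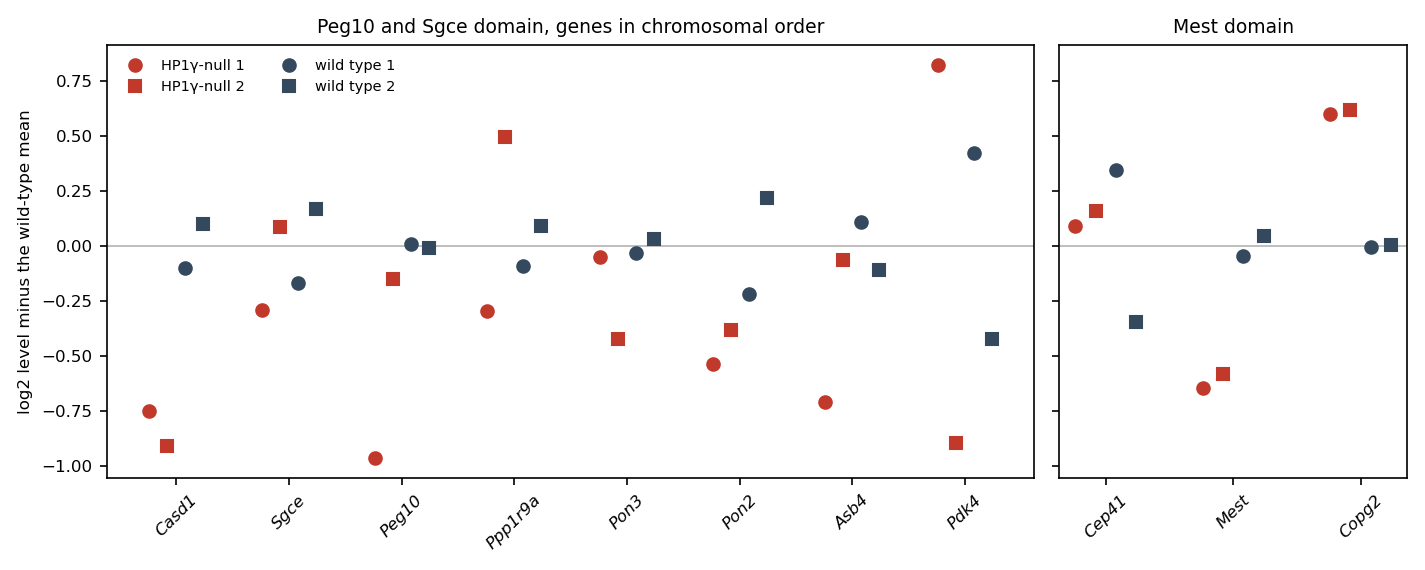
Level of each tested gene around Peg10 and Sgce and around Mest (log2, minus the wild-type mean of the same probe, vertical axis) on the 2 HP1γ-null (red) and 2 wild-type (dark) arrays, in chromosomal order along the horizontal axis. Casd1 and Mest are lower and Copg2 higher on both null arrays, while Peg10 is well below wild type only in null replicate 1.

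Nnat, the gene of the small membrane proteolipid neuronatin, which lies within an intron of Blcap, was the only member whose level ranged over more than 2 log2 units. Its probe A_52_P484956 had levels of -0.91 and 2.12 in null replicates 1 and 2 and -0.58 and -1.08 in wild-type replicates 1 and 2. A single array was high, and null replicate 1 lay between the 2 wild-type arrays. The mean difference of 1.43 had an SE of 1.05 (limma adjusted p = 0.84, 95% confidence interval -1.38 to 4.24). Dropping null replicate 2 left -0.09, and dropping null replicate 1 left 2.95. Its host gene Blcap differed by -0.11, with levels of 2.77 and 2.93 in the null pools and 3.01 and 2.91 in the wild-type pools.

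Stromal markers shared the order of arrays seen for Nnat in the null pools. Of the 12 tested, 11 were higher in null replicate 2 than in null replicate 1, and the median level was -1.16 and 1.48 in null replicates 1 and 2, against -0.10 and -1.18 in wild-type replicates 1 and 2. Their summed linear signal ran from 12.9 to 89.5 in the null pools and from 11.3 to 26.2 in wild type. No stromal marker was below background on every array, and their part in the Nnat level was not tested. Among 11809 other named genes tested, the 3 with the most alike profile over the 4 arrays were Slc2a4, Scx and Ccdc80. Slc2a4, the gene of the insulin-responsive glucose transporter, had a root mean square difference from Nnat of 0.042 log2 units. For Scx, the tendon transcription factor scleraxis, it was 0.140, and for Ccdc80, which encodes a secreted matrix protein, it was 0.172. With 4 arrays such likeness describes these pools only.

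**Figure D3:**
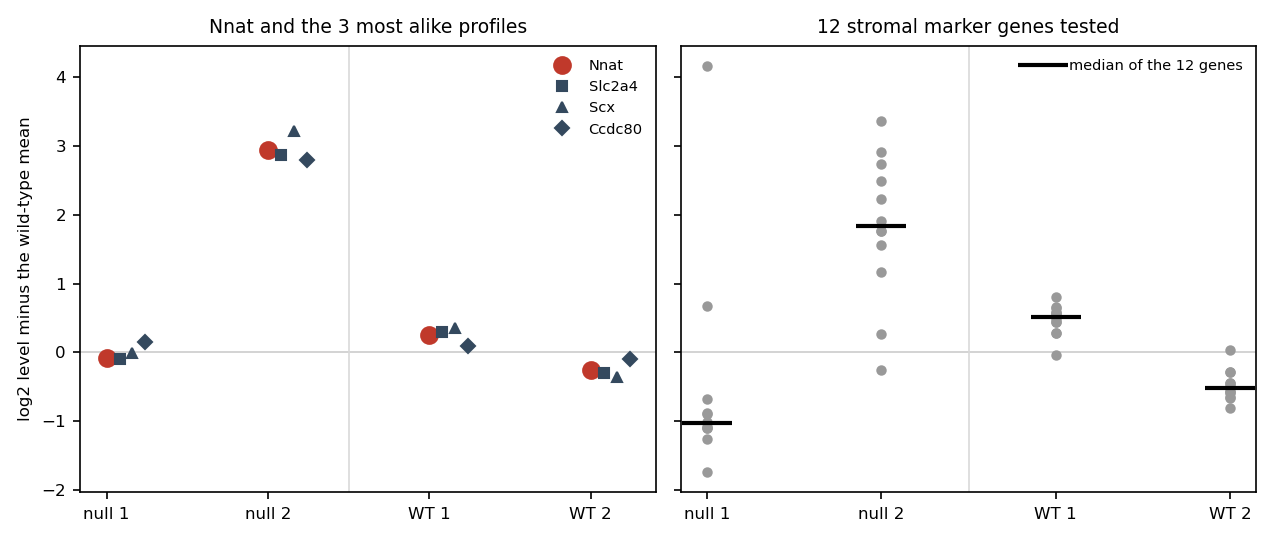
Level minus the wild-type mean of the same probe (log2, vertical axis) on the 2 HP1γ-null and 2 wild-type arrays (horizontal axis), for Nnat and the 3 named genes most like it (left) and for the 12 stromal markers tested with their median as a bar (right). Nnat reaches 2.95 above wild type in null replicate 2 and lies at -0.09 in null replicate 1, and most stromal markers are likewise highest in null replicate 2.

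Of the remaining paternally expressed genes, Impact gave close values and Rasgrf1 gave no signal above background. Impact, whose product restrains the amino acid sensor kinase GCN2, had levels of 1.24 and 1.57 in the null pools and 1.15 and 1.33 in the wild-type pools. The groups overlapped, and the difference was 0.17 with SE 0.23 (limma adjusted p = 0.93, 95% confidence interval -0.43 to 0.78). Dropping null replicate 2 gave 0.01, and dropping null replicate 1 gave 0.33. Rasgrf1, a Ras exchange factor known from neurons, read -5.77 to -5.62 in null replicate 1 and -7.04 to -6.89 in null replicate 2 over its 2 probes, against -6.34 to -5.59 in wild type. No fold is given for it, because both genotypes were at background.

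**Figure D4:**
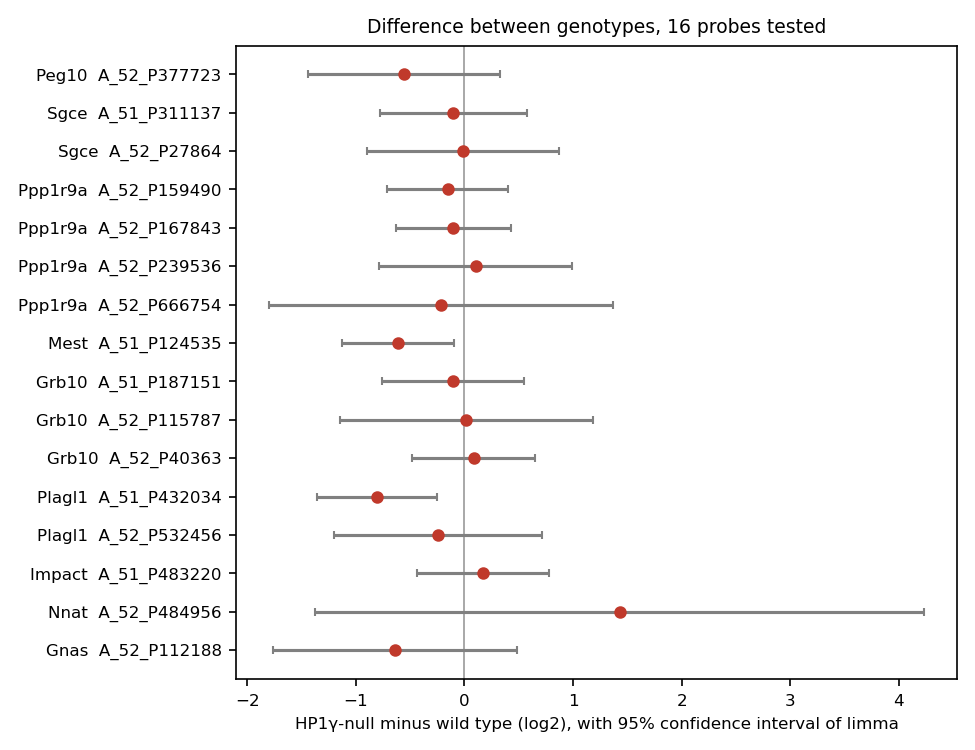
Difference between HP1γ-null and wild type (log2, horizontal axis) for the 16 probes tested, with the 95% confidence interval of limma as bars and n = 2 arrays per genotype. Only the intervals of Mest and of Plagl1 probe A_51_P432034 lie wholly below 0, before adjustment for the 22440 probes tested.

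The 2 null arrays differed from each other in a single direction for these genes. All 16 tested probes were higher in null replicate 2 than in null replicate 1, by 0.03 to 3.03 with a median of 0.60, while 45.4% of all tested probes were. The 16 probes are not independent, as several belong to 1 gene. The gap between the null replicates exceeded that between the wild-type replicates for 13 of the 16 probes, against 75% of all probes. Over the 9 genes tested, taken by their brightest probe, the median deviation from the wild-type mean was -0.57 in null replicate 1 and 0.21 in null replicate 2. Genes below the wild-type mean numbered 8 of 9 in null replicate 1 and 3 of 9 in null replicate 2. Quantile normalization, scaling to the median of detected probes, the deposited value table and scaling to spiked-in RNA also placed all 16 probes higher in null replicate 2. With normexp background correction 15 were. Under spiked-in RNA 78.1% of all probes had this order. Other lists shared this order, with 28 of 39 imprinted genes of other domains, 11 of 14 endothelial, 11 of 12 stromal and 5 of 5 erythroid markers higher in null replicate 2. Germ cell markers, with 0 of 15, leukocyte markers, with 3 of 11, and mesonephric markers, with 1 of 6, mostly ran the other way. Of the 5 gonadal soma markers tested, 3 were higher in null replicate 2. The part of these cell types in the order of the imprinted genes was not tested.

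Imprinted genes of other domains give the setting for these values. Of 51 listed, 39 were tested. Means were higher in the null pools for 25 and lower for 14, with a median difference of 0.30, and none passed limma's threshold. At least 2-fold higher without overlap were 8 of the 39, against 3.92% of all probes, and none was lower in that way. The 8 were Peg3, Usp29, Zim1, Magel2, Dlk1, Meg3, Rian and Dio3. All lie in the Peg3, Prader-Willi and Dlk1 domains, and genes that share a domain are not independent. Without null replicate 2, Peg3, Dlk1 and Meg3 differed by 0.81, 0.73 and 0.54, each less than 2-fold. Usp29, Zim1, Magel2, Rian and Dio3 stayed more than 2-fold higher without that array. Of these 8, Usp29, Zim1 and Dio3 entered the test through the null arrays alone, an entry that favours genes higher there. Snurf entered in the same way and overlapped between the genotypes. Most tested markers of gonadal soma and of mesonephros also had higher means in the null pools. All 5 gonadal soma markers tested, of 13 listed, had higher means in the null pools, 2 of them entering through the null arrays alone. The summed linear signal of these 5 was 7.04 and 8.04 in null replicates 1 and 2 and 3.18 and 2.00 in wild-type replicates 1 and 2. Of the 13 listed, 5 and 12 were well above background in null replicates 1 and 2, against 5 on each wild-type array. Foxl2 stayed at background on all 4 arrays. Of 6 mesonephric markers tested, of 9 listed, 5 had higher means, with Krt8 and Krt18, keratins of simple epithelia, at least 2-fold higher without overlap. Cdh6 was lower without overlap, by -0.49, and Cdh16, Gata3 and Epcam overlapped. The summed linear signal of the 6 was 30.2 and 9.18 in null replicates 1 and 2 and 2.50 and 1.74 in wild-type replicates 1 and 2. It rested mostly on Krt18, at 4.38 and 2.68 in null replicates 1 and 2, and Krt8, at 2.61 and 1.09. Pax2 and Pax8 stayed at background on all 4 arrays. The part of these markers in the levels of the imprinted genes was not tested. Dio3, a thyroid hormone deiodinase gene of the Dlk1 domain, was at least 8.21-fold higher in the null pools and not well above background in wild type (limma adjusted p = 0.23). Magel2 had levels of -1.66 and -1.23 in the null pools and -3.07 and -3.35 in the wild-type pools (limma adjusted p = 0.26). For the 9 members tested 4 had a higher and 5 a lower mean, the median difference was -0.10, and 0 were at least 2-fold apart without overlap. The difference between the 2 sets was not tested. Without null replicate 2 the medians were -0.57 for the members and -0.01 for the other imprinted genes, and without null replicate 1 they were 0.21 and 0.43.

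Of 27 genes listed as flanking the members in the genome, 15 were tested. Means were higher in the null pools for 5 and lower for 10, and none passed limma's threshold. The smallest unadjusted p belonged to Ddc, the aromatic amino acid decarboxylase gene beside Grb10. Its level was -0.45 and -0.06 in the null pools and -2.47 and -2.96 in the wild-type pools. Both null arrays were higher, and the difference was 2.46 with SE 0.28, a 5.50-fold higher null level (limma adjusted p = 0.17). Grb10 itself overlapped between genotypes by each of its 3 probes.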

How the data were processed

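Sorted cells of 2 HP1γ-null and 2 wild-type pools, grouped by the genotype in the labels, were each hybridised to 1 one-colour array. The authors' deposited intensity values are, per the file headers and the submitters' processing notes, from Agilent Feature Extraction 10.7.3.1, which subtracted background and spatial trends within an array and scaled nothing between arrays. The deposited value table holds the same linear intensities, rounded (off by at most 0.497%), uncentred, with medians of 14.5 and 33.4 for null and 20.6 and 22.6 for wild-type replicates 1 and 2. All arrays share 1 slide and 1 scan day, so neither separates the groups, and the pools are separate embryos per the labels.

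Computed here were log2 processed signals minus each array's 75th percentile over 43379 spots that are not controls. Spots marked as outliers, 83 to 104 an array, were dropped, so that 21 of 41174 probes had no value, and 1 saturated spot an array was kept. A probe was tested if 1 genotype or both had it well above background on its 2 arrays, which left 22440. The test was limma's (version 3.58.1, R 4.3.3), two-sided, by lmFit and eBayes with 2 residual and 2.43 prior degrees of freedom, with p adjusted by Benjamini-Hochberg across the 22440 probes at a threshold of 0.05. It was tested on simulated data. Python 3.11.15 read the files. The scanner files hold median spot signals, so normexp (offset 50) used these in place of mean signals. RefSeq accessions named 26888 probes. Where 1 probe stands for a gene, it is the brightest on average. A bound ("at least") sets the bright group against the higher of the dim signal and the lowest detected signal of each dim array.

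Named are all member probes, Cbx3, Blcap, Asb4, Copg2, the 2 genes with the smallest p among the flanking genes, among the imprinted genes of other domains and among those that keep or erase imprints, and for members ranging over 2 log2 units the 3 most alike genes. Cell type markers and the network of imprinted genes are given by counts and summed levels, and a marker named singly, or a gene named because it was measured in 1 genotype, was chosen after its values were seen. Members and lists were chosen with earlier results of these data known. Some genes stand in more than 1 list, such as Dcn among imprinted genes and stromal markers. A replicate number is shared between the genotypes, and the correlation of same-numbered deviations was 0.07 across probes.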

Additional observations from a re-analysis of the deposited data

How the results depend on the processing

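No member gene or probe passed limma's threshold under any alternative that kept all 4 arrays. The lowest limma adjusted p among these was 0.23, for Plagl1 A_51_P432034 with spiked-in RNA. Of the 212 values that the alternatives gave for the 16 tested probes, 190 kept their direction and 22 turned. Scaling to spiked-in RNA, which moved the median difference over all probes to -0.61, a shift of -0.55, put the median over member genes at -0.65, against -0.10 in the report, and gave 3 genes at least 2-fold apart without overlap (Peg10, Mest and Gnas), against 0. It turned Ppp1r9a A_52_P239536 to -0.44, Grb10 A_52_P115787 to -0.53, Grb10 A_52_P40363 to -0.46 and Impact to -0.37. Normexp turned Sgce A_52_P27864 to 0.056, Ppp1r9a A_52_P666754 to 0.052 and Grb10 A_52_P115787 to -0.033. The mean over a gene's probes turned Ppp1r9a to -0.093 and Grb10 to -0.0007. Leaving out 1 array at a time gave medians of -0.57 to 0.21 and counts at least 2-fold apart of 0 to 1 (Nnat without null replicate 1 or wild-type replicate 1, Gnas without null replicate 2). It turned the direction of Sgce A_51_P311137 (-0.29 to 0.088) and A_52_P27864 (-0.40 to 0.37), Ppp1r9a A_52_P239536 (-0.29 to 0.50) and A_52_P666754 (-0.89 to 0.45), Grb10 A_51_P187151 (-0.32 to 0.12), A_52_P115787 (-0.57 to 0.60) and A_52_P40363 (-0.054 to 0.22), Plagl1 A_52_P532456 (-0.69 to 0.21) and Nnat (-0.086 to 2.95). The cause was not tested. Peg10, Mest, Gnas A_52_P112188, Plagl1 A_51_P432034 and Ppp1r9a A_52_P159490 and A_52_P167843 never turned. With the replicate block, 0 member genes were called and their median stayed at -0.10, while 13 probes of the whole array were called, against 2. Labels do not say that equal numbers pair the pools. With trend and robust settings 12 probes of the array were called, with quantile normalization 3 and with spiked-in RNA 137. The 4 probes at background carry no direction, and a missed threshold with 2 arrays a group does not show equal levels.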

Other observations

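Genes that keep or erase imprints were read from a list of 22, of which 19 were tested, Cbx3 included. Means were higher in the null pools for 9 and lower for 10, and none passed limma's threshold by the probe used, the brighter Cbx3 probe included (adjusted p = 0.099). Next to Cbx3, the smallest unadjusted p was that of Trim28, the corepressor that ZFP57 recruits. Its level was 3.46 and 3.93 in the null pools and 3.28 and 3.12 in the wild-type pools, without overlap, a difference of 0.50 with SE 0.25 (limma adjusted p = 0.75).

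The 12 genes tested of a network of imprinted genes that move together in mouse tissues, Plagl1, Mest, Grb10 and Gnas among them, had 7 higher and 5 lower means in the null pools. Each of the 12 was higher in null replicate 2 than in null replicate 1, as were 45.4% of all tested probes. All 12 are already counted above, among the members or the imprinted genes of other domains, so this count is not independent of those.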
